A study of Mus musculus with 11 samples.

Results

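Endothelial marker genes were followed in sympathetic ganglia of mice that lack apolipoprotein E and of wild-type mice. The 10 genes were Pecam1, Cdh5, Kdr, Tek, Tie1, Esam, Cldn5, Egfl7, Emcn and Flt1. They were taken by gene symbol, with every probe set that the platform annotation pairs with only that gene, which gave 10 of the 12394 genes on the array and 16 of the 22626 probe sets that are not array controls. The 11 arrays came from male C57BL mice of 78 weeks on normal chow, 6 labelled apoE-/- (here Apoe-deficient) and 5 wild-type. The ganglia were taken from frozen tissue with laser capture. Which mouse gave which array is not in the labels. A p-value given here therefore measures only how far these samples spread, which may be technical, and is too small if 1 mouse gave several arrays.

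Endothelial cells line blood vessels, and the small vessels of a sympathetic ganglion run among the nerve cell bodies with their satellite glia. Their identity genes fall into a few roles. Adhesion and junction proteins hold the cells together, receptor tyrosine kinases of the VEGF and angiopoietin systems control vessel growth and rest, and secreted or surface glycoproteins shape the vessel wall. In a mixed tissue such genes report on the vessels that were captured, and fewer endothelial cells cannot be told apart from less RNA per cell.

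Of the 10 genes, 0 rose and 0 fell in Apoe-deficient ganglia. The genes were tested with limma on log2(signal + 16) values after quantile normalisation, with Benjamini-Hochberg adjustment over 8433 genes past a filter on low values. Of the 9 genes past that filter, 7 had a higher mean and 2 a lower mean in Apoe-deficient ganglia, while 43% of all genes tested had a higher mean. Over all genes 1.93% were called at an adjusted p under 0.05, 1.26% as higher and 0.676% as lower. The unadjusted limma p was under 0.05 for Pecam1, Emcn and Kdr, which is 3 of 9, beside 20.3% of all genes. An exact two-sided permutation test of each gene over the 462 splits of the arrays gave an unadjusted p under 0.05 for Pecam1 and Kdr, 2 of 9, beside 18.2% of all genes. The groups overlapped for all 9, and did not overlap for 2.96% of all genes. The median log2 difference was 0.06 over the 9 genes and -0.04 over all genes. Each of the 9 intervals of 95% for the log2 difference lay within 1 unit of 0, so a change of that size or more lay outside each interval. A smaller change is not excluded by a p that misses the threshold.

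Apoe checked the labels, with a signal of 143 ± 84.6 (SD) in Apoe-deficient ganglia (n = 6) against 15155 ± 3020 (SD) in the 5 wild-type samples. The tissue label was checked on noradrenergic neuron genes. Dbh, the enzyme that makes noradrenaline, had a signal of 11644 ± 3198 (SD, n = 6) with Apoe lacking and 14358 ± 2540 (SD, n = 5) with it present. The arrays fell into 3 levels by the signal of their hybridisation controls, which are added to each sample before it goes on the array. The low level held replicates 2, 3 and 4 of the Apoe-deficient group and no wild-type array. The middle level held 1 Apoe-deficient array, replicate 5, with replicates 3, 4 and 5 of the wild type, and the remaining 4 arrays were high. The poly-A control signal of the 3 low arrays was 276.9 to 898.3, against 1905.2 to 4687.8 on the others.

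For 7 of the 10 genes RefSeq's promoter table (GRCm38.p6) held a sequence, with 9 start sites among them, and Pecam1, Cdh5 and Esam had no entry. The 250 bases before the start of the receptor gene Kdr, the surface glycoprotein gene Emcn and the receptor gene Tek are shown because these 3 had the largest differences among the genes past the filter that have an entry. Capitals mark the letters CCGGAA or AGGAAG on either strand, forms of the site read by ETS factors, the transcription factors known for switching on endothelial genes.
Kdr, chr5:75978456-75978705, minus strand: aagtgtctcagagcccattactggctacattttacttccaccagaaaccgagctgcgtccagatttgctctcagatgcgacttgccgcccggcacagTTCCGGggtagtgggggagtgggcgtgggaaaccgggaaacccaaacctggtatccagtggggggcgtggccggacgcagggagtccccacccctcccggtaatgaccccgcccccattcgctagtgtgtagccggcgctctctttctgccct
Emcn, chr3:137340828-137341077, plus strand: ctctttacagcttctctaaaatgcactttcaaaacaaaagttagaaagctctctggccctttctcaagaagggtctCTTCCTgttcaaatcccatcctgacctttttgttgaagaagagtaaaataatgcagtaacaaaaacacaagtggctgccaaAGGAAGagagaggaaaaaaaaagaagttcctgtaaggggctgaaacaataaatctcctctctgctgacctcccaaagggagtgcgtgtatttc
Tek, chr4:94739039-94739288, plus strand: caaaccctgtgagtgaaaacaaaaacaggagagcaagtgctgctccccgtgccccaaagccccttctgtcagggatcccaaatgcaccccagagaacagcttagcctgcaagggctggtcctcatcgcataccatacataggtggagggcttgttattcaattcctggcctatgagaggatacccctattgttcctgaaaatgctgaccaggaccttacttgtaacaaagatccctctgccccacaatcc
Kdr held 1 match to CCGGAA, in its reverse form, and Emcn held 2 matches to AGGAAG. Tek held 0 of either, which says only that these letters are not in this window. Over the 9 start sites CCGGAA was found in 1 and AGGAAG in 5, and at least 1 of the pair in 6. Egfl7 alone gave 3 of these start sites, numbers 1 and 2 with AGGAAG, so the 9 are not 9 separate genes. Over all 32851 windows of 250 bases in the table, CCGGAA was found in 12%, AGGAAG in 29.5% and at least 1 of the pair in 38.2%. The letters GGGCGG, read by SP1, were found in 4 of the 9 and in 32.7% of all windows, those of GATA factors (AGATAA) in 0 of 9 and 9.99%, and TATAAA in 1 of 9, that of Flt1, and 12.4%. Both strands were searched, and neighbouring matches can overlap by a few letters. The matches are a description of letters and show no binding.

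Among the adhesion genes, Pecam1 stood closest to the threshold. Pecam1 encodes CD31, an adhesion protein of endothelial cell contacts that leukocytes and platelets also carry. Its deposited signal ran from 162.1 through a median of 289.9 to 316.7 on the 6 Apoe-deficient arrays. On wild-type replicates 1 to 5 it was 166.4, 160.7, 153.8, 217.6 and 233.4. Of the Apoe-deficient arrays, 5 were above the highest wild-type array, and replicate 5 lay among the lower wild-type arrays, so the groups overlapped through that array alone. The log2 values were 8.13 ± 0.36 (SD, n = 6) against 7.63 ± 0.28 (SD, n = 5), a difference of 0.50 (95% interval 0.11 to 0.89, limma adjusted p = 0.16), or 1.41-fold. The exact permutation p was 0.045. Leaving out Apoe-deficient replicate 5 gave a difference of 0.64 with a limma adjusted p of 0.037, the only setting that called a member. Blocked on control level the difference was 0.37 (limma adjusted p = 0.58), and on the arrays outside the low level 0.40 (limma adjusted p = 0.61). Among the high-level arrays, 2 against 2, the difference was 0.89, and in the middle level, with that replicate 5 against 3 wild-type arrays, it was -0.32.

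The other adhesion genes differed less. Cdh5 encodes VE-cadherin, the adherens junction protein of endothelium. Its probe set past the filter gave signals of 193.8 to 329.6 in Apoe-deficient and 183.8 to 299.1 in wild-type ganglia, ranges that largely coincide. The log2 difference was 0.15 (95% interval -0.16 to 0.46, limma adjusted p = 0.57), and 0.022 when blocked on control level. The other Cdh5 probe set lay below the filter on all 11 arrays, with signals of 26.9 to 62.4 and 27.1 to 57.6, and differed by 0.05. The pair of Cdh5 probe sets correlated at -0.36 over the 11 arrays with group means taken out, so the dimmer did not follow the brighter.

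Esam and Cldn5 belong to the tight junction. Esam, an immunoglobulin-family adhesion protein, had signals of 228 to 363.8 in Apoe-deficient and 245.2 to 407 in wild-type ganglia (log2 difference 0.06, 95% interval -0.27 to 0.38, limma adjusted p = 0.86). Its highest array was wild-type replicate 1 and its lowest Apoe-deficient replicate 5. Cldn5, the claudin that seals the vessels of barrier tissues, had the widest spread of the junction genes. Its signals ran from 199.4 through a median of 243.1 to 484.6 in Apoe-deficient ganglia and were 408.2, 217, 253.3, 207.4 and 316.1 in wild-type replicates 1 to 5. Both groups thus held a bright replicate 1 and dimmer arrays, and the log2 difference was 0.05 (95% interval -0.43 to 0.54, limma adjusted p = 0.91).

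Emcn encodes endomucin, a mucin-like surface protein of capillary and venous endothelium. Its signal ran from 156.5 through 237.25 to 278.1 on the Apoe-deficient arrays and was 216, 169.2, 164, 150.3 and 170.7 on wild-type replicates 1 to 5. Of the Apoe-deficient arrays 4 exceeded every wild-type array and replicates 5 and 6 did not. After normalisation replicate 6 fell among the wild-type arrays and replicate 5, at 7.38, below the lowest of them, at 7.46. The log2 values were 7.91 ± 0.33 (SD, n = 6) and 7.55 ± 0.15 (SD, n = 5), a difference of 0.35 (95% interval 0.0049 to 0.70, limma adjusted p = 0.24), and the exact permutation p was 0.056. Blocking on the hybridisation controls gave a difference of 0.07, and leaving out the 3 low arrays gave 0.14. Within the high level it was 0.18 and within the middle level -0.09. All 3 low arrays were Apoe-deficient and had Emcn signals from 227.9 to 278.1, so this level cannot be told apart from the genotype there.

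**Figure D1:**
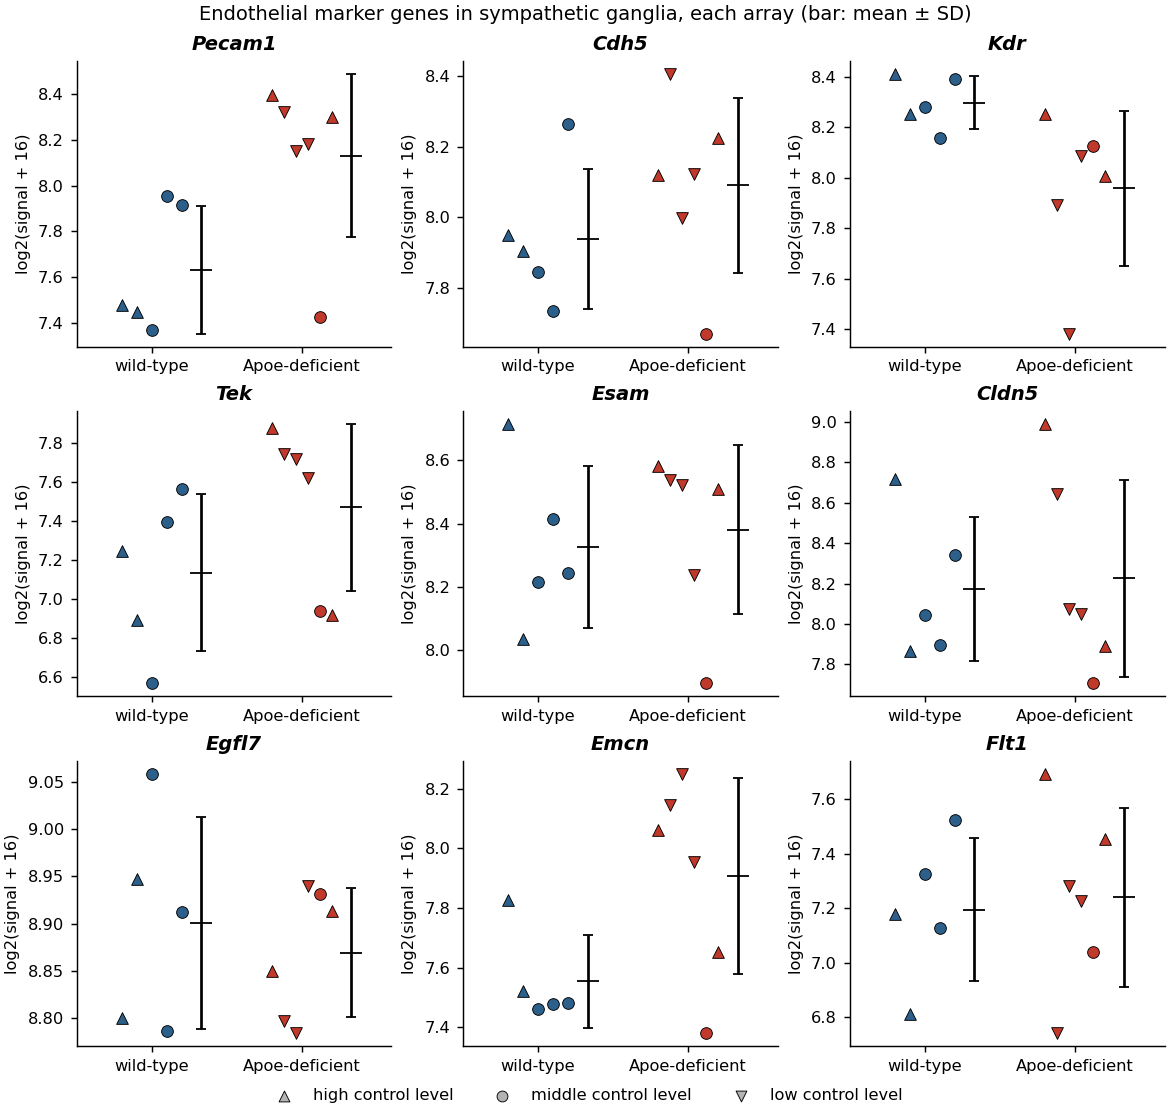
Values of the 9 endothelial genes past the filter on each of the 11 arrays, as log2(signal + 16) after quantile normalisation, for wild-type (blue) and Apoe-deficient (red) ganglia. Point shape gives the hybridisation control level and the bar the mean ± SD (n = 5 and n = 6). Kdr lay lower and Pecam1 and Emcn higher in most Apoe-deficient arrays, with Apoe-deficient replicate 5, the red circle, lowest of its group for Pecam1, Cdh5, Esam, Cldn5 and Emcn.

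Of the receptors of the VEGF system, Kdr and Flt1, 0 were called. Kdr encodes VEGFR2, the main signalling receptor for VEGF-A on endothelium. Its signal ran from 139.5 through 253 to 283.4 in Apoe-deficient ganglia and was 327.3, 286.5, 302.1, 253.3 and 326.6 in wild-type replicates 1 to 5. After normalisation 5 of the 6 Apoe-deficient arrays lay below the lowest wild-type array, and 0 above the wild-type median. The log2 values were 7.96 ± 0.31 (SD, n = 6) and 8.30 ± 0.10 (SD, n = 5), a difference of -0.34 (95% interval -0.66 to -0.02, limma adjusted p = 0.22), or 0.79-fold, with an exact permutation p of 0.015. Apoe-deficient replicate 3, the dimmest, stood apart at a log2 value of 7.38. The difference was -0.22 without it, -0.18 when blocked on control level and -0.17 on the 8 arrays outside the low level. Within the high level it was -0.20 and within the middle level -0.15.

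Flt1 encodes VEGFR1, which binds VEGF-A tightly and also exists as a soluble decoy form. Its 3 probe sets gave log2 differences of 0.05, -0.0022 and 0.07, and the third lay below the filter on all arrays. The probe set that stands for the gene had signals of 84.5 to 182.5 in Apoe-deficient and 101.9 to 175.9 in wild-type ganglia (log2 difference 0.05, 95% interval -0.36 to 0.45, limma adjusted p = 0.91). Blocked on control level this difference was 0.21, and with array weights it turned to -0.093. The second past the filter was more variable, from 35.8 to 201.1 and from 40.7 to 220.5, with an interval of -0.88 to 0.87 in the fit over all probe sets. Which transcript form each probe set reads was not analysed here.

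Tek and Tie1 are the receptor tyrosine kinases of the angiopoietin system. Tek encodes TIE2, the angiopoietin receptor itself. Its signal ran from 110.8 through 181.15 to 212.1 in Apoe-deficient ganglia and was 140.9, 107.7, 83.8, 140.7 and 180.8 in wild-type replicates 1 to 5. Apoe-deficient replicates 1, 2, 3 and 4 lay above all wild-type arrays after normalisation, and replicates 5 and 6 at the level of the lower wild-type arrays. The log2 difference was 0.34 (95% interval -0.16 to 0.83, limma adjusted p = 0.41). Blocking on control level gave 0.085, and the gene did not pass the filter on the 8 arrays outside the low level. The difference was 0.33 within the high level and -0.24 within the middle level. Tie1, the partner receptor of TIE2, was the only 1 of the 10 genes below the filter. Its signals of 3.5 to 61.9 in Apoe-deficient and 5.8 to 33.2 in wild-type ganglia are low. The Tie1 difference was 0.39 in the fit over all probe sets (95% interval -0.40 to 1.18, limma adjusted p = 0.63). Its SE of 0.37 was wider than that of each probe set that stands for a gene. Only a further Flt1 probe set had a wider SE, 0.41.

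Egfl7 encodes a small secreted protein that endothelial cells lay into the vessel wall. It had 4 probe sets, and they disagreed in sign. The probe set with the highest normalised log2 mean stands for the gene, narrowly ahead of another (8.87 in Apoe-deficient and 8.90 in wild-type ganglia, against 8.97 and 8.77). It had signals of 416.1 to 476.7 in Apoe-deficient and 408.5 to 527.1 in wild-type ganglia. Its log2 SD was 0.07 (n = 6) and 0.11 (n = 5), and its log2 difference was -0.03 (95% interval -0.23 to 0.17, limma adjusted p = 0.87). The other pair past the filter gave -0.19 and, for the close second, 0.20, and the fourth, below it, 0.11. Of these 4 probe sets, the chosen probe set and the close second end in _x_at. Such probe sets hold probes that can also match other transcripts. The chosen probe set correlated at 0.09 and 0.35 with the others past the filter, which correlated at 0.60 with each other, over the 11 arrays with group means taken out.

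Over all 16 probe sets, fitted among all 22626 and with no filter, limma called 0, beside 0.734% of all probe sets, and 2 had an unadjusted p under 0.05, beside 16%. Of the 16, 12 had a higher and 4 a lower mean in Apoe-deficient ganglia. The groups overlapped for all 16, against 2.11% of all probe sets without overlap. In this fit the differences of the 12 probe sets past the filter ran from -0.34 (Kdr) to 0.50 (Pecam1).

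**Figure D2:**
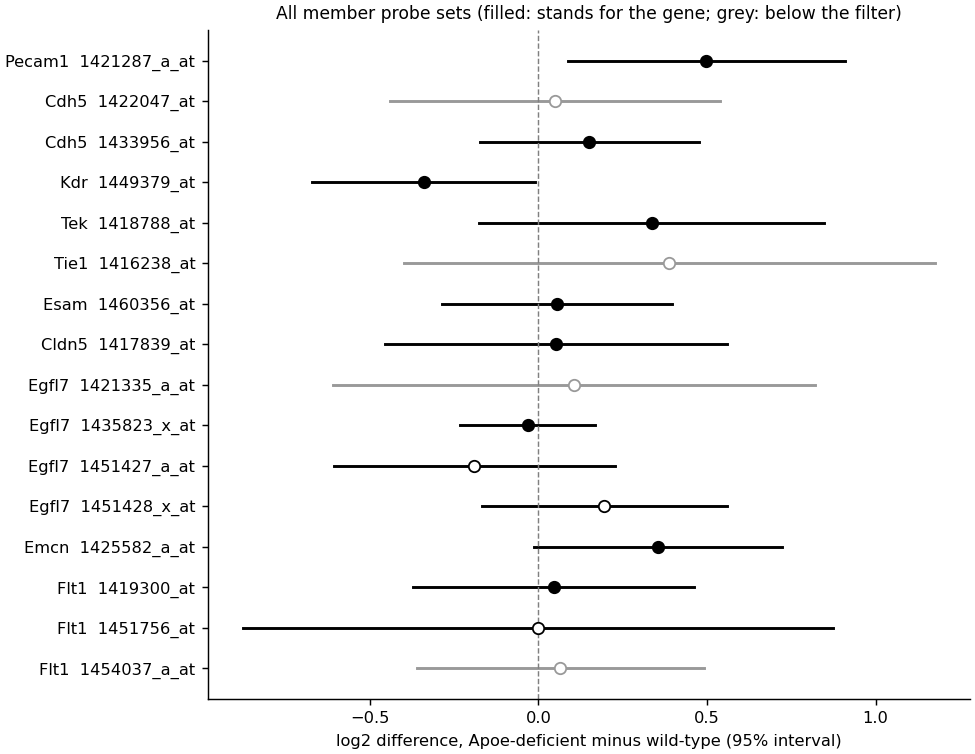
Log2 difference, Apoe-deficient minus wild-type, of all 16 member probe sets with the 95% interval from limma fitted over 22626 probe sets. Filled points stand for their gene. Open points are further probe sets and the only probe set of Tie1, and grey marks probe sets below the filter. Only the intervals of Pecam1 and Kdr leave out 0, and neither passed after adjustment.

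Most of the genes varied together from array to array within the groups. With group means taken out, 25 of the 36 pairs correlated above 0 and 9 above 0.5 over the 11 arrays. The correlations ran from -0.68 (Tek with Egfl7) to 0.73 (Esam with Emcn), with a median of 0.30. Pecam1, Cdh5, Tek, Esam, Cldn5 and Emcn moved together, each at 0.59 or more with the mean of the other members (Emcn 0.59, Cldn5 0.78). Flt1 followed at 0.32 and Kdr at 0.03, and the probe set that stands for Egfl7 ran against them at -0.50. It correlated at only 0.09 and 0.35 with the other Egfl7 probe sets past the filter, so its direction may not hold for the gene. The likeness was weaker without the 2 extreme arrays. Apoe-deficient replicate 1 had the highest mean deviation of the 9 genes (0.34 log2 units above their means) and Apoe-deficient replicate 5 the lowest (-0.29). Without both, 23 pairs were above 0, 6 above 0.5, and the median correlation was 0.07. Leaving out the extremes of the mean narrows its range, so lower correlations were likely beforehand. These points share the array and its normalisation, and the correlations are descriptions.

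**Figure D3:**
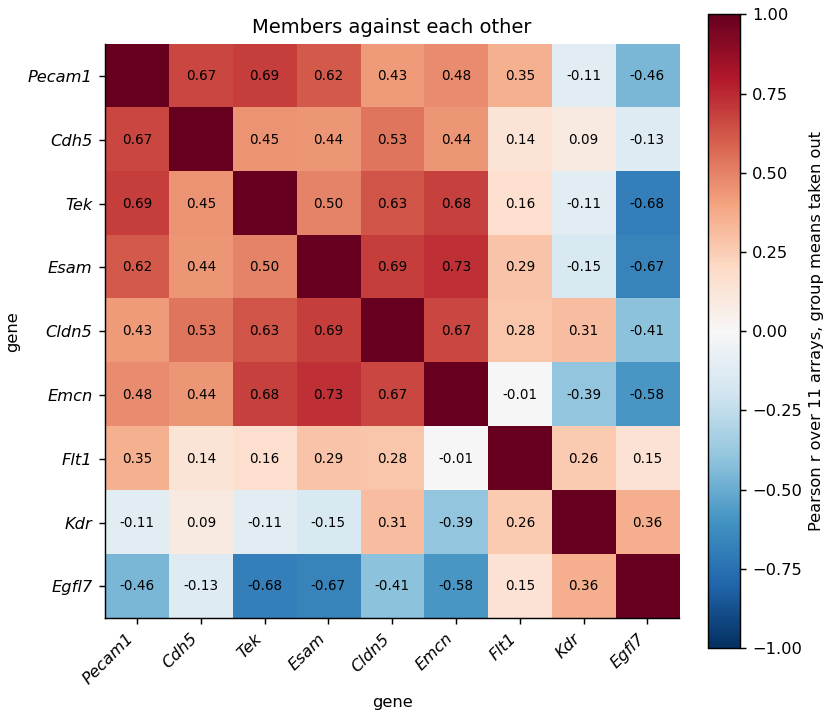
Pearson correlation between each pair of the 9 genes over 11 arrays, with the mean of each group taken out. The block of Pecam1, Cdh5, Tek, Esam, Cldn5 and Emcn is positive throughout (0.43 to 0.73), and Egfl7 is negative against each of them. Egfl7 is read from a single probe set, which followed the other Egfl7 probe sets past the filter only weakly.

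The 5 other genes whose pattern was most like the mean of the members, by the same correlation, were Fkbp9 (0.95), Epb41l2 (0.94), Hacl1 (0.94), Cpxm2 (0.92) and Kif1c (0.92). Their own log2 differences ran from -0.25 to 0.29 and 0 passed the threshold. Of all other genes tested, 11.6% correlated above 0.5 with the member mean, so likeness of that size is common here.

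Markers of several other captured cells moved with the member mean too. With group means taken out, the mean of 7 white adipocyte genes correlated at 0.72 with it, and that of 6 satellite glia genes at 0.71. The mean of 12 macrophage genes was at 0.63, of 8 fibroblast genes at 0.52 and of 8 noradrenergic neuron genes at -0.80. Pericyte and smooth muscle genes (10) were at 0.40, while 20 further endothelial markers were at 0.81. The platelet and erythroid list (3) was at 0.32, through the platelet genes Gp1bb, Itga2b and Pf4 alone. The glia mean includes Apoe, with a signal of only 143 ± 84.6 (SD) in the Apoe-deficient group, and a glia mean without Apoe was not computed. Apoe-deficient replicate 5, lowest for the endothelial genes, also had the lowest summed signal of the adipocyte genes, 5292.4, where the other Apoe-deficient arrays had 14226.4 to 32878.3 and the wild-type arrays 10979.6 to 34654.9. Without the 2 arrays farthest from the median of each list, the correlations were 0.28 for adipocyte, 0.53 for satellite glia, 0.59 for macrophage, 0.26 for fibroblast and -0.36 for neuron genes. They were -0.11 for pericyte and smooth muscle genes, 0.13 for the platelet genes and 0.34 for the further endothelial markers. For 12 endothelial transcription factor genes the correlation was 0.92, and 0.88 without the 2 arrays farthest from their median. For VEGF, Notch, junction, capillary transport and lymphatic genes it was 0.70, 0.46, 0.78, 0.80 and 0.58. Without the 2 farthest arrays of each, these were 0.19, 0.47, 0.40, 0.43 and 0.46. Apoe-deficient replicate 5 was among the arrays left out for adipocyte, macrophage, fibroblast and neuron genes. The arrays were picked as extremes of each list, so a lower correlation without them was likely beforehand. The part of the captured tissue in the endothelial values was not tested.

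**Figure D4:**
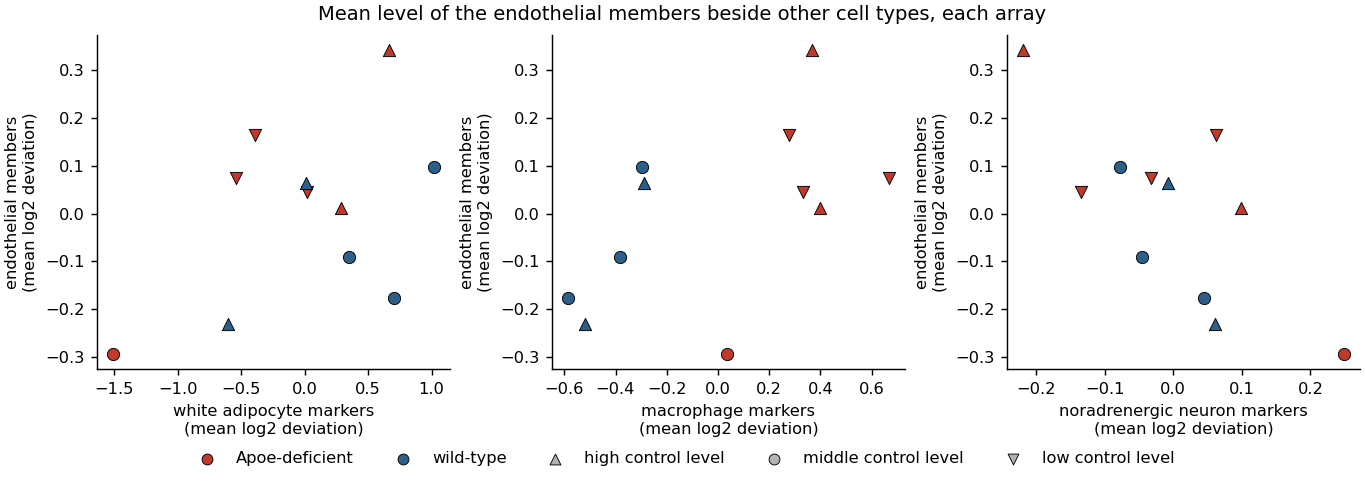
Mean log2 deviation of the 9 endothelial genes on each array (vertical) against that of white adipocyte, macrophage and noradrenergic neuron markers (horizontal). Red is Apoe-deficient, blue wild-type, and shape gives the control level. The lone red circle, Apoe-deficient replicate 5, is lowest for endothelial (-0.29) and adipocyte genes (-1.51) and highest for neuron genes (0.25).

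Genes that act with the members were read from 6 lists of endothelial markers, transcription factors, VEGF and angiopoietin signalling, Notch signalling, junction partners and capillary transport. The lists held 106 genes besides the members, of which 75 passed the filter. Of these 1 rose and 0 fell, or 1.33%, where 1.93% of all genes were called, and 16 of 75 had an unadjusted p under 0.05, beside 20.3% of all genes. Their median log2 difference was 0.05.

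The gene that rose was Mef2c, a transcription factor of endothelium, muscle, neurons and myeloid cells. Its signal ran from 155.5 through 210.95 to 247 in Apoe-deficient ganglia and was 123, 94.8, 63.1, 100 and 148.7 in wild-type replicates 1 to 5. The lowest of the 6 Apoe-deficient arrays exceeded the highest wild-type one. On the log2 scale Mef2c was higher by 0.96 with an SE of 0.19 (limma adjusted p = 0.021). Another probe set of Mef2c past the filter gave -0.0028, and the mean of both 0.48 (limma adjusted p = 0.11). Its other 3 probe sets, below the filter, gave 0.66, 1.17 and 0.49. The call was lost without Apoe-deficient replicate 2 (limma adjusted p = 0.051) or 3 (0.056) or wild-type replicate 2 (0.062), blocked on replicate number (0.068), blocked on control level (0.21, with a difference of 0.81) and on the arrays outside the low level (0.26, with 0.85).

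In the transcription factor list 1 of 12 measured genes passed, and 11 had a higher mean, with a list median of 0.19. The ETS family genes Fli1 (0.97, limma adjusted p = 0.062) and Ets1 (0.67, limma adjusted p = 0.051) came next. For each, 5 of 6 Apoe-deficient values exceeded the highest wild-type value. Fli1 passed the filter, set at a log2 value of 6.98, mainly through Apoe-deficient arrays, as its wild-type values ran from 5.85 to 7.09. It did not pass the filter on the arrays outside the low level. Blocked on control level, Fli1 was at 0.83 (limma adjusted p = 0.22) and Ets1 at 0.77 (0.14). Another Ets1 probe set past the filter gave 0.70 and a further one -0.39, and the mean of those past the filter 0.32 (limma adjusted p = 0.29). Mef2c, Fli1 and Ets1 are transcribed in blood-derived cells as well. Of the 12 macrophage markers 9 rose and 0 fell, namely C1qc (1.43), Ctss (1.20), C1qa (1.03), Mrc1 (0.99), Mpeg1 (0.92), Cd68 (0.82), Tyrobp (0.78), C1qb (0.58) and Csf1r (0.53) in log2 units. The list had a median of 0.80 and a summed signal of 9653.9 to 13361 in Apoe-deficient and 5912.7 to 7676.7 in wild-type ganglia. Of the platelet and erythroid markers 3 of 9 passed the filter, all platelet genes, and 0 were called, with Gp1bb at -0.36, Itga2b at -0.24 and Pf4 at 0.10. The part of blood-derived cells in the values of Pecam1 and of these factors was not tested.

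Among 20 further endothelial markers past the filter 0 were called and the median was 0.10. Of the 20, 13 had a higher and 7 a lower mean in Apoe-deficient ganglia. The thrombin and protein C receptor genes Thbd and Procr and the apelin receptor gene Aplnr had the smallest p. Thbd had signals of 261.5 to 362.4 in Apoe-deficient and 221.8 to 243.1 in wild-type ganglia, with no overlap, and a log2 difference of 0.37 (SE 0.11, limma adjusted p = 0.11). Procr differed by 0.55 (limma adjusted p = 0.092) and Aplnr by 0.78 (limma adjusted p = 0.11). Blocked on control level, Thbd was at 0.32 (limma adjusted p = 0.40), Procr at 0.58 (0.27) and Aplnr at 0.77 (0.36).

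In VEGF and angiopoietin signalling 0 of 12 genes were called and the median was -0.01. The ligand gene Vegfb differed by -0.34 (limma adjusted p = 0.21), the co-receptor gene Nrp1 by -0.25 (limma adjusted p = 0.36) and the matrix gene Thbs2, an inhibitor of vessel growth, by 0.53 (limma adjusted p = 0.20). Blocked on control level, Vegfb was at -0.20 and Nrp1 at -0.56. In Notch signalling 0 of 10 were called, with the ligand genes Dll4 at -0.53 (limma adjusted p = 0.15) and Jag2 at -0.39 (limma adjusted p = 0.14) and the target gene Hes1 at 0.65 (limma adjusted p = 0.11). For Dll4 and for Jag2, 5 of 6 Apoe-deficient values fell short of the lowest wild-type value. Blocked on control level, Jag2 was at -0.18. Of 11 junction partners 0 were called, with plakoglobin (Jup) at -0.59, Jam2 at -0.23 and beta-catenin (Ctnnb1) at 0.13. The same block gave Jup -0.27 and Ctnnb1 0.020. Of 13 capillary transport genes 0 were called. Fabp4, which adipocytes also make in quantity, differed by -0.77, the monocarboxylate transporter gene Slc16a1 by 0.26 and the transferrin receptor gene Tfrc by -0.21. Within the high level Fabp4 turned to 0.77, and blocked on control level Slc16a1 was at -0.0066 and Tfrc at -0.33. Some of these genes have several probe sets past the filter. With their mean, Tfrc was at -0.016, Ctnnb1 at 0.35, Jag2 at -0.26, Nrp1 at -0.30, Jam2 at -0.19 and Fabp4 at -0.71.

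Neighbouring vessel cells gave similar counts. Of 4 lymphatic endothelial markers past the filter 0 were called (median 0.11), Pdpn at 0.31, Lyve1 at 0.18 and Reln at 0.04, and of 10 pericyte and smooth muscle markers 0 (median 0.05), with Mcam at -0.22, Vtn at 0.43 and Des at -0.66. White adipocyte markers gave 0 of 7, all 7 with a lower mean (median -0.54, Lipe -0.66, Retn -0.74 and Cidec -0.81). Fibroblast markers gave 0 of 8 (median 0.36, Col3a1 0.79, Dcn 0.56 and Lum 0.66). Of the 6 satellite glia markers 1 fell, which was Apoe itself, with Fabp7 at 0.28 and Sox10 at -0.27. Of the 8 noradrenergic neuron markers 0 were called (median 0.03), with Gata3 at 0.39, Phox2a at -0.50 and Dbh at -0.20.

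**Figure D5:**
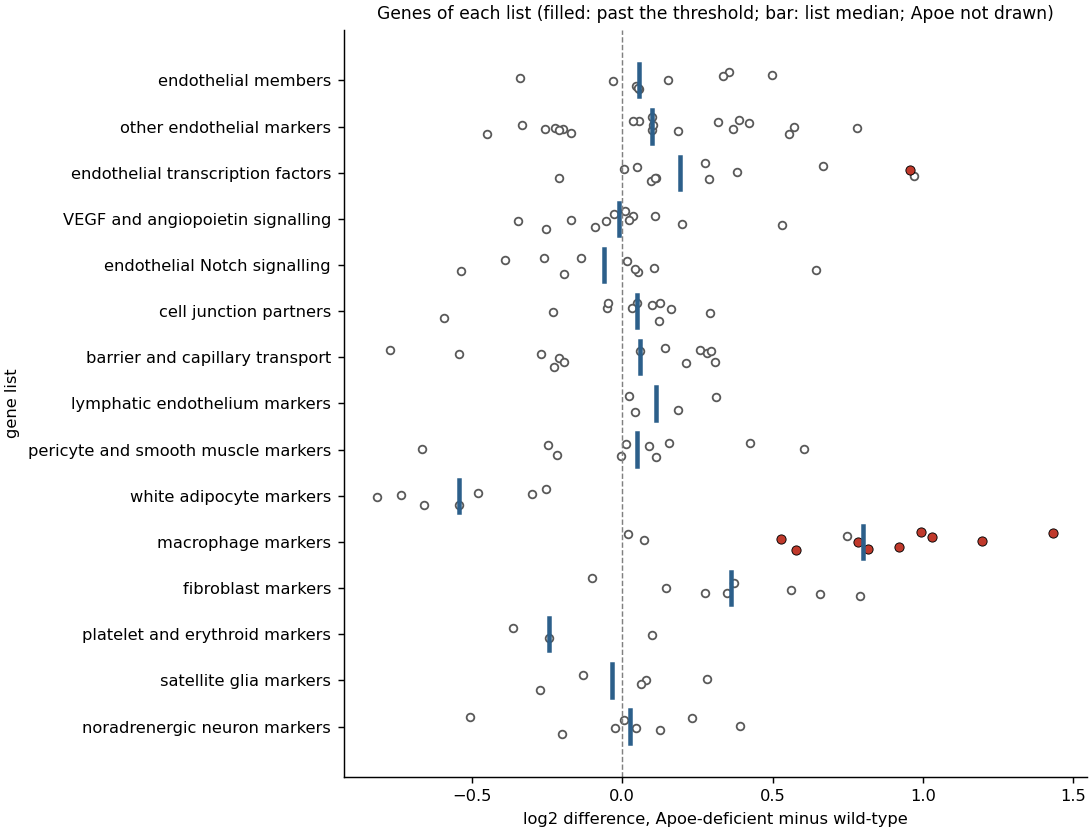
Log2 difference, Apoe-deficient minus wild-type, of each gene past the filter, by list. Filled points passed the limma threshold, the blue bar is the list median, and Apoe (-6.75), a satellite glia marker, is not drawn. The endothelial members lie between -0.34 and 0.50 around a median of 0.06, with 0 called, and the macrophage markers around 0.80 with 9 called.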

How the data were processed

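Each array's deposited value is a probe set's intensity on a linear scale, made by the authors with GCOS 1.4, as the submitters' processing notes name it. How GCOS was set is not stated in the labels. Deposited arrays shared a trimmed mean near 500.2, so they had been scaled, and their number limits the precision.

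Signals were taken to log2(signal + 16), without 64 array controls, and quantile normalised. A probe set passed if 5 or more arrays exceeded the 40th percentile taken over the whole matrix. Where a gene had several that name it alone, the one of highest normalised log2 mean stood for it. Differences understate the change of low genes. Tests used limma 3.58.1 in R 4.3.3 with an intensity trend, two-sided, and a Benjamini-Hochberg threshold of 0.05, tested on simulated data. A second fit took all 22626 probe sets. Of these, 20380 carry 1 gene symbol. Figures were drawn with matplotlib 3.10.9.

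The members and lists were chosen with earlier results of these data known. The genes named were the members, Apoe, and from each other list the called genes and the 3 of smallest p, with the 5 most like the member mean. Alternatives covered the step between arrays, pseudocount, filter, probe set rule, variance model, array weights, control level, replicate number and each array left out.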

Additional observations from a re-analysis of the deposited data

Results flagged for a closer look

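Over the 16 member probe sets, 4 of 32 groups of values held an array whose gap to its nearest neighbour was large for the range of its group, where chance alone gives about 1 in 20, or 1.6. Pecam1 was lowest in Apoe-deficient replicate 5, at a log2 value of 7.43 against 8.15 for the next array. Emcn was highest of its group in wild-type replicate 1, at 7.83 against 7.52. A probe set of Egfl7 that does not stand for the gene was highest in wild-type replicate 2, at 8.73 against 8.28. A further Flt1 probe set was lowest in Apoe-deficient replicate 4, at 5.69 against 7.11.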

How the results depend on the processing

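The count of called members, 0, was the same in 24 of 25 alternatives and 0 to 1 over the fits without an array, the 1 being Pecam1 without Apoe-deficient replicate 5. The count of called member probe sets was 0 in each of 22. The exact permutation count fell from 2 to 0 without the 3 low arrays, where 8 members passed the filter and 56 splits were possible. In the vascular lists the count of 1 became 2 with median centring and 7 with array weights. It became 0 with the filter at the 60th percentile, which 44 genes of these lists passed and Mef2c did not. The count was also 0 with the mean of probe sets, the control level as a block, without the low level and within the high level. Without an array it was 0 to 3. With the replicate number as a block, on numbers 1 to 5, 0 members were called, the nearest being Emcn (0.41, adjusted p = 0.20), and in the vascular lists 1, now Hes1 in place of Mef2c. Same-numbered arrays correlated at -0.18 to 0.15 in their deviations from the group means, so the numbers were not taken as pairs.

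Signs of Esam, Cldn5, Egfl7 and Flt1, members near 0, turned in some settings, as did those of the transport genes Slc16a1 and Fabp4. With the control level as a block Esam was -0.073, Cldn5 -0.082, Egfl7 0.0097 and Slc16a1 -0.0066. Flt1 was -0.093 with array weights. Egfl7 was 0.36 without the low level, read from another probe set, and 0.0089 within the high level, where Fabp4 was 0.77. Without an array Esam ran from -0.017 to 0.15, Cldn5 from -0.10 to 0.19, Flt1 from -0.35 to 0.29 and Egfl7 from -0.060 to 0.25. The median member difference was -0.02 to 0.24, the highest without Apoe-deficient replicate 4, and -0.03 with the filter at the 60th percentile, where 3 members were left. The median correlation between members was 0.31 with no quantile step, 0.29 without the low level and 0.07 without both Apoe-deficient replicates 1 and 5, all 3 settings of this correlation chosen after seeing the data. Flt1 and Egfl7 changed probe set in some of these fits. Pecam1 kept its sign in all 24 settings that measured it (0.37 to 0.88), as did Emcn (0.07 to 0.46), Tek in all 23 (0.085 to 0.45) and Kdr in all 25 (-0.41 to -0.17). The middle level alone, 1 array against 3, was not among these settings. There Pecam1 was at -0.32, Emcn at -0.09 and Tek at -0.24, each with the sign turned, and Kdr at -0.15. Dim signals limit Tie1 and 1 further probe set each of Cdh5, Egfl7 and Flt1, all below the filter.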
